A study of Mus musculus with 2 samples.

Results

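The Mir297, Mir466, Mir467 and Mir669 families are rodent microRNA genes, most of which lie in tandem inside an intron of Sfmbt2. Their members were taken here as all genes whose GENCODE M21 symbol begins with 1 of those 4 names, which gave 81 of the 2202 microRNA genes counted. Of the 81, 71 lay inside Sfmbt2 and 10 elsewhere in the genome. They comprised 6 Mir297, 28 Mir466, 17 Mir467 and 30 Mir669 genes.

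Counts came from 2 microRNA sequencing libraries, with inserts under 30 nt, of the gastrocnemius, a calf muscle. Both were made from male B6CASTF1/J mice, hybrids of the C57BL/6 and CAST strains, at 4 days of age. The labels give 1 group with no treatment and no second condition, replicate numbers 1 and 2 and animal numbers 3 and 4, under a shared donor identifier. Replicate 1 held 4458853 sense reads assigned to microRNA genes and replicate 2 held 3073086, and levels are given as CPM, counts scaled to 1000000 sense microRNA reads, or as shares of these totals. Reads of Mir206, known from skeletal muscle, numbered 652657 in replicate 1 but 101 in replicate 2, and those of Mir208a, known from heart, 59 but 29718. The library labelled replicate 2 thus goes against its tissue label, and every difference below is between these 2 labelled libraries only.

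MicroRNAs are cut from hairpin transcripts, and bases 2 to 8 of the mature strand, the seed, pair with target messages. Sfmbt2 encodes a Polycomb group protein, and in mouse the gene is imprinted, with the paternal copy active in the early embryo and placenta. The microRNAs in its intron are read from the same strand as the host and are known for their part in placental growth. Their hairpins arose by repeated duplication and are rich in alternating U and G or C and A, so many copies resemble each other closely.

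RefSeq entries on GRCm38.p6, the assembly that mm10 names, were matched for 9 of the 81 members, and 8 of them had a mature sequence. All 8 are copies outside Sfmbt2 that had 0 reads in both libraries. They are shown 5′ to 3′ as examples of the alternating repeat in copies outside Sfmbt2, with the seed in capitals.
Mir466q (chr3:28419988-28420007, plus strand): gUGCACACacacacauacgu
Mir466k (chr3:85467396-85467418, plus strand): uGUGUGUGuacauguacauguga
Mir466j (chr10:60960802-60960824, plus strand): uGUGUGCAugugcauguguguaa
Mir466i (3p arm, chr13:17747552-17747573, plus strand): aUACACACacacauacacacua
Mir467f (chr11:69635419-69635439, minus strand): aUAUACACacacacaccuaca
Mir467g (chr5:34732872-34732892, minus strand): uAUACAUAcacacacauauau
Mir467h (chr9:115381898-115381919, plus strand): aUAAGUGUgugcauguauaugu
Mir669n (chr3:115979905-115979924, plus strand): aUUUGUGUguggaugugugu

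The longest run of strictly alternating U and G, or C and A, in these mature sequences was 12 nt, in Mir466q and Mir467f, and the shortest was 7 nt, in Mir466j and Mir467h. No seed was shared among the 8. Among these 8, genes of the same family by name thus carried different seeds. The 4 Mir466 sequences had UGCACAC in Mir466q, GUGUGUG in Mir466k, GUGUGCA in Mir466j and UACACAC in Mir466i. The seed of Mir467h, UAAGUGU, was also that of mmu-miR-668-5p, and the other 7 seeds matched no other of the 1738 mature sequences in the table. Mature sequences of the members inside Sfmbt2 were not among the 1738, so seeds shared with them could not be found.

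Only 12 of the 81 members had any read. They all lay inside Sfmbt2, and 9 had reads in both libraries. The members together held 5783 reads in replicate 1, or 0.130% of microRNA reads (exact Clopper-Pearson 95% interval 0.126 to 0.133%), and 4885 in replicate 2, or 0.159% (0.155 to 0.163%). With the imprinted Dlk1-Dio3 microRNA genes left out of the total, the shares were 0.193% and 0.161%, so which library had the higher share depended on the total used. These intervals cover counting error only, because PCR copies of a molecule are counted as separate reads. In whole tissue, fewer cells of a type and less RNA per cell cannot be told apart.

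The Mir467 family held most of these reads. Its 17 genes had 4585 reads in replicate 1 and 4196 in replicate 2, which is 79.3% (78.2 to 80.3%) and 85.9% (84.9 to 86.9%) of the members' reads. The 30 Mir669 genes had 1186 and 687 reads, or 20.5% (19.5 to 21.6%) and 14.1% (13.1 to 15.1%). The 28 Mir466 genes had 7 and 2 reads and the 6 Mir297 genes 5 and 0. Nearly all family reads assigned to a single gene thus came from 3 Mir467 genes and 5 Mir669 genes.

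The cluster ran from 10466663 to 10518279 on the plus strand of mm10 chromosome 2. All 71 inside members fell in the same intron of Sfmbt2, on the host's strand, between 10461473 and 10523944. That intron follows exon 10 or exon 11, depending on the transcript, and is 62472 nt long. No inside member overlapped an exon. Reads were found at both ends of the cluster and not in its middle.

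At the upstream end, Mir669e (chromosome 2, 10467495 to 10467613) had 51 reads in replicate 1 and 21 in replicate 2. Mir669l (10468971 to 10469068) had 242 and 99 reads, and Mir467c (10473931 to 10474027) had 332 and 204. Each of these 3 genes had more reads in replicate 1, which was also the deeper library.

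From Mir466b-1 to Mir669a-12 (10474219 to 10503877) lay 38 consecutive members with 0 reads in both libraries, over 29.7 kb. This stretch held every Mir467a and Mir466b gene and all Mir669a genes except Mir669a-2, which lies further downstream and also had 0 reads. The 33 other microRNA genes annotated within it, named only by Gm numbers, had 0 reads as well. Of the 38 members, 31 had no 22 nt stretch of their own, as described below.

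Downstream of that stretch came the genes with the most reads. Mir467e (10505721 to 10505807) had 1894 and 933 reads, which is 425 CPM (406 to 444) and 304 CPM (284 to 324). Mir467d (10507630 to 10507714) had 2359 and 3059 reads, which is 529 CPM (508 to 551) and 995 CPM (960 to 1031). Mir467d was the member with the most reads in both libraries, and the only one with over 100 reads to have more reads in the shallower replicate 2. Among all microRNA genes it ranked at 111 in replicate 1 and at 71 in replicate 2. Mature miR-467 is known to target the thrombospondin gene Thbs1, and whether this holds for Mir467d or Mir467e was not tested.

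Mir669c (10509296 to 10509404) had 341 and 292 reads, and Mir669o (10514300 to 10514395) had 547 and 269. Mir669h (10518155 to 10518279), the last member of the cluster, had 5 and 6 reads. The remaining 4 members with reads were too low for any comparison and are named because they complete the set, after their values were seen: Mir466n with 6 and 2 reads, Mir297a-2 with 4 and 0, and Mir297b and Mir466h with 1 and 0 each.

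**Figure D1:**
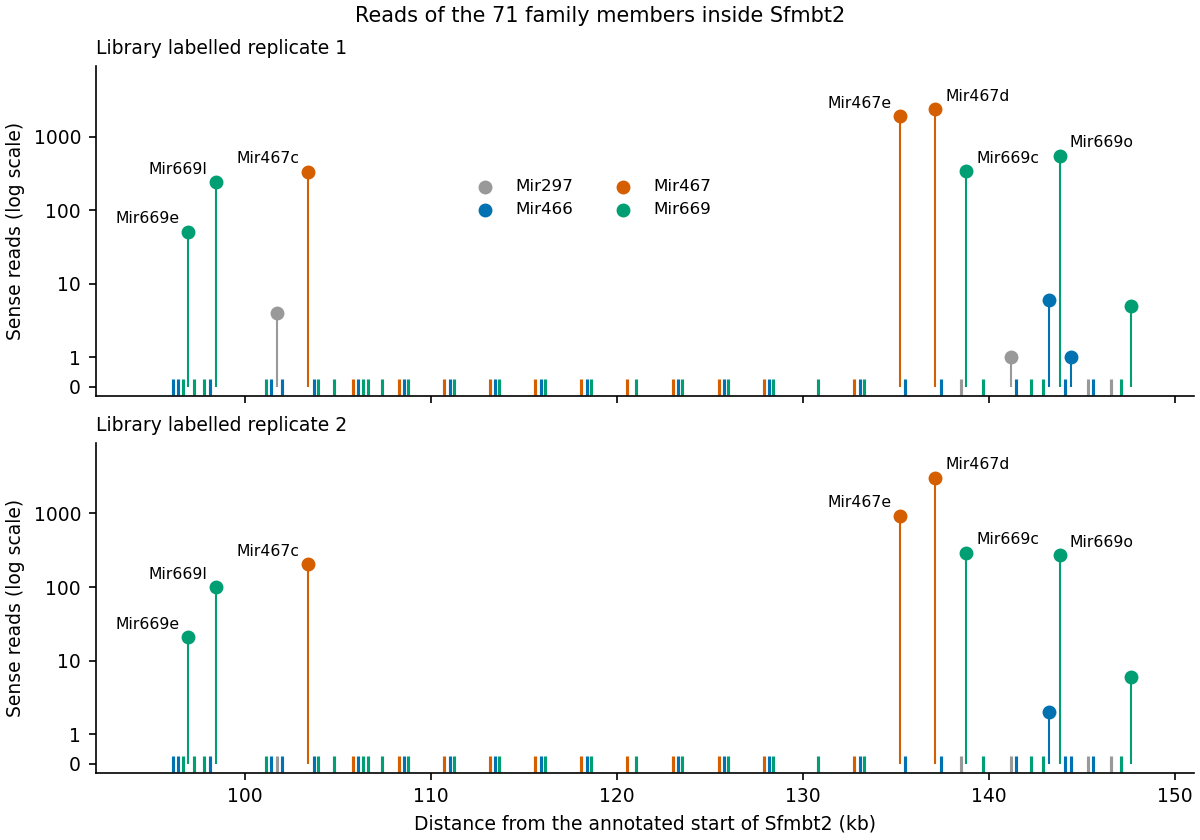
Sense reads of each of the 71 members inside Sfmbt2 (log axis, points; ticks at the bottom are members with 0 reads) against distance in kb from the annotated start of Sfmbt2, for each library. The 38 members between Mir467c and Mir467e sit at 0 in both libraries, and Mir467d and Mir467e are the highest points of each.

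The order of the levels could be read only in part. Only reads assigned to a single gene were counted. The share of 22 nt hairpin stretches found in no other microRNA gene ran from 39.1% in Mir467d to 96.9% in Mir669e. How far this changed the order was not tested. In replicate 1 the order of CPM was Mir467d, Mir467e, Mir669o (123), Mir669c (76.5), Mir467c (74.5), Mir669l (54.3), Mir669e (11.4) and Mir669h (1.12). The intervals of Mir669c (68.6 to 85.0) and Mir467c (66.7 to 82.9) overlapped, and those of all other neighbours did not. In replicate 2 Mir669c (95.02, interval 84.4 to 107) stood before Mir669o (87.5, 77.4 to 98.6) with overlapping intervals. Mir467c (66.4), Mir669l (32.2), Mir669e (6.83) and Mir669h (1.95) followed. The intervals of Mir669e (4.23 to 10.4) and Mir669h (0.717 to 4.25) overlapped narrowly, and those of the remaining neighbours did not. A small RNA gives 1 read whatever the length of its hairpin. With reads divided by hairpin length, Mir467c and Mir669c changed places in replicate 1 and Mir669o and Mir669c in replicate 2, and no other neighbours did.

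The 10 members outside Sfmbt2 had 0 reads in both libraries, which allows each up to 0.673 CPM in replicate 1 and 0.976 CPM in replicate 2 at 3 counts, for reads assigned to a single gene only. On chromosome 3, Mir466q (28419943 to 28420018) lies in an intron of the kinase gene Tnik on the same strand. Mir466k (85467377 to 85467498) lies in an intron of Gm37240 and Mir669n (115979902 to 115979955) in an intron of the zinc transporter gene Slc30a7, both on the opposite strand. On chromosome 5, Mir467g (34732853 to 34732972) lies opposite an intron of the receptor kinase gene Grk4. On chromosome 11, Mir467f (69635400 to 69635519) lies opposite an intron of Fxr2, and on chromosome 13 Mir466i (17747473 to 17747593) lies opposite an intron of the cyclin-dependent kinase gene Cdk13. The other 4 were intergenic: Mir297-1 (chromosome 7, 10958437 to 10958512), Mir467h (chromosome 9, 115381819 to 115381939), Mir466j (chromosome 10, 60960723 to 60960844) and Mir466f-4 (chromosome 13, 71107089 to 71107209). Tnik was thus the only host on the strand of its microRNA among these 10, and Mir466q too had 0 reads.

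The outside copies differed from the cluster in sequence. Their median identity to the nearest other member, over the whole hairpin, was 65.1%, against 95.7% for the members inside Sfmbt2. Their longest alternating runs had a median of 13 nt and reached 28 nt, in Mir466q, while inside members had a median of 9 nt and a longest of 15 nt. Over all 2202 genes the median was 4 nt.

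Many copies were alike. The 81 hairpins held 63 distinct sequences, and 26 members were identical over the whole hairpin to another annotated microRNA gene. The largest identical set was Mir669a-4 to Mir669a-12, with 9 genes. A further 6 Mir467a genes (Mir467a-2, Mir467a-4, Mir467a-5, Mir467a-7, Mir467a-8 and Mir467a-9) shared a hairpin with Gm25022, and Mir467a-3, Mir467a-6 and Mir467a-10 were identical to each other. All of these had 0 reads in both libraries. Of the members, 79 shared at least 1 stretch of 22 nt with another annotated microRNA gene (97.5%), against 1002 of the other 2121 genes (47.2%). Stretches on either strand counted, so genes annotated on opposite strands of a locus also count as sharing.

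The members with no 22 nt stretch of their own had no reads. There were 32 such members, all inside Sfmbt2, among them all 10 Mir467a genes, 11 of 12 Mir669a genes and 6 of 8 Mir466b genes. Mature miR-669a is known to restrain MyoD in cardiac progenitors, and its 12 annotated genes all stood at 0. Of the 24 inside members with some but at most 50% of their stretches unique, 3 had reads, and of the 15 with over 50% unique, 9 had reads. The 12 members with reads had between 36.2% (Mir297a-2) and 96.9% (Mir669e) of their stretches unique, and Mir467d had 25 of 64.

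A hairpin of its own did not go with reads in every case. Of the inside members with over 50% unique stretches 6 had 0 reads, and so did all 8 such members outside Sfmbt2. Mir466l, whose mature form is known to act on Il10 messages, had 89 of 100 stretches unique and 0 reads. Mir466g inside Sfmbt2 and Mir669n on chromosome 3 shared no stretch with any annotated microRNA gene and also had 0 reads. Among the other 2121 genes, 29 of 302 with no unique stretch had reads (9.60%), as did 678 of 1819 with at least 1 (37.3%), and among members these counts were 0 of 32 and 12 of 49 (24.5%). These 302 genes are not like the members. They had 366694 and 656882 sense reads in replicates 1 and 2 but 24 and 36 unstranded reads. A stretch on either strand counted as shared, which takes in genes annotated on opposite strands of a locus.

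**Figure D2:**
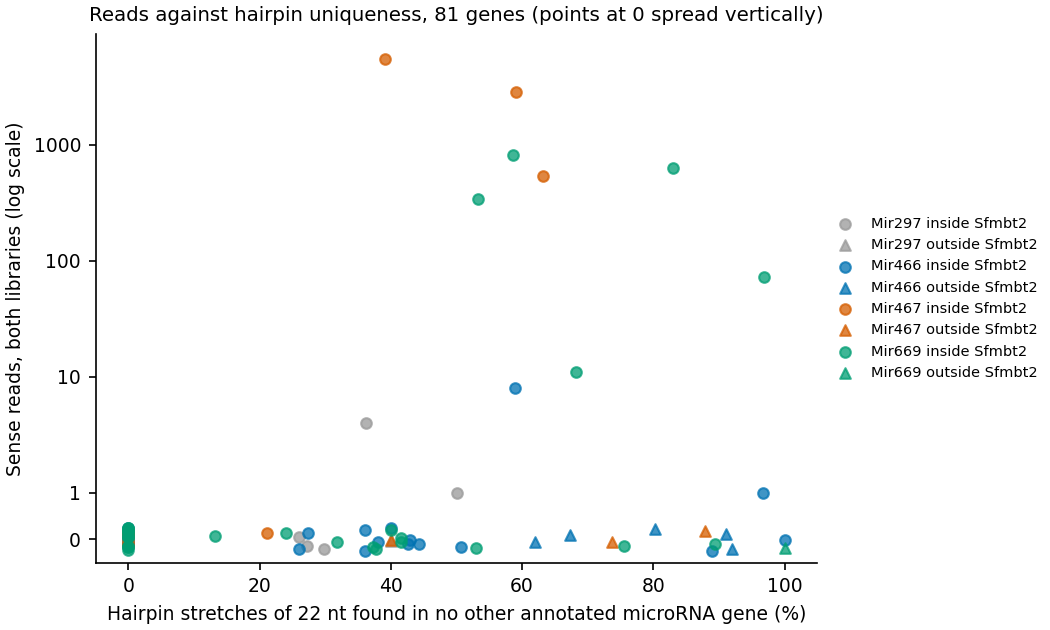
Sense reads summed over both libraries (log axis) against the percentage of 22 nt hairpin stretches found in no other annotated microRNA gene, for the 81 members; circles lie inside Sfmbt2, triangles outside, and points at 0 are spread vertically for sight only. The 32 members at 0% on the horizontal axis have 0 reads, and the 12 members with reads lie between 36.2% and 96.9%.

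Reads that map to several places make up 35.7% of replicate 1 and 45.1% of replicate 2 in the tables and are assigned to no gene. How many of them came from these families was not tested, so a count of 0 for a member with identical copies does not show that its microRNA was absent. The search covered annotated microRNA genes only, and copies elsewhere in the genome were not searched.

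The 48 microRNA genes inside Sfmbt2 that carry Gm names had 0 reads in both libraries. Of these, 47 had a 22 nt stretch in common with some other microRNA gene, and 22 had no stretch of their own. All reads counted for microRNA genes inside Sfmbt2 were thus those of the named families. No member had an antisense read, and unstranded counts equalled sense counts for the members as a whole, with 5783 and 4885 reads.

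The make-up of the family reads differed between the libraries. Mir467d held 40.8% of the members' reads in replicate 1 (39.5 to 42.1%) and 62.6% in replicate 2 (61.2 to 64.0%). Mir467e held 32.8% (31.5 to 34.0%) and 19.1% (18.01 to 20.2%). The pair came to 73.5% and 81.7% of the members' reads. Mir669o went from 9.46% (8.72 to 10.2%) to 5.51% (4.88 to 6.18%) and Mir669l from 4.18% (3.68 to 4.73%) to 2.03% (1.65 to 2.46%), while Mir669c held 5.90% (5.30 to 6.53%) and 5.98% (5.33 to 6.68%). Mir467c held 5.74% (5.16 to 6.37%) and 4.18% (3.63 to 4.78%), and Mir669e 0.882% (0.657 to 1.16%) and 0.430% (0.266 to 0.656%). Of the 8 members with at least 10 reads, 6 had intervals that did not overlap between libraries, narrowly so for Mir669e, and those of Mir669c and Mir669h overlapped. These shares are parts of a whole, so a change in any member moves the others and the 6 are not separate changes. Shares alone do not tell whether Mir467d rose or the others fell. The test described below is another measure, which also asks for a log2 ratio of at least 1 in size. It called 36.1% of all 410 tested genes lower in replicate 2 and 17.6% higher. With any log2 ratio, 187 of the 410 were lower and 128 higher.

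**Figure D3:**
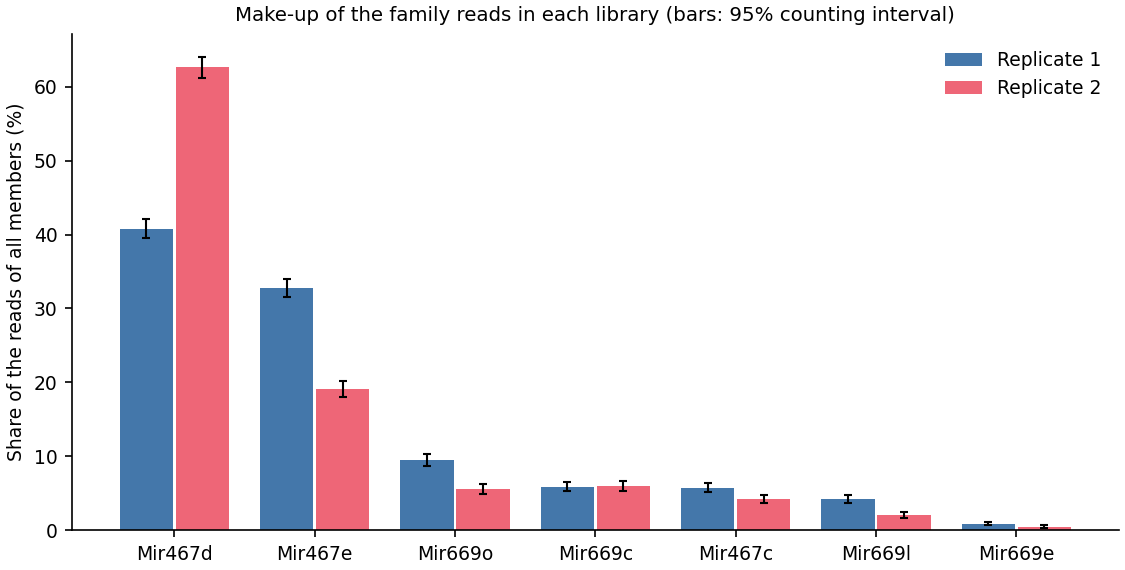
Share of the reads of all 81 members held by each member with over 20 reads (percent; bars, with 95% counting intervals) in replicate 1 and replicate 2. The Mir467d bar rises from 40.8% to 62.6%, the Mir467e bar falls from 32.8% to 19.1%, and the Mir669c bars are level.

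Ratios of members within a library need no scaling between libraries. They compare only reads assigned to a single gene, and the members differ in how much of their hairpin is unique. Mir467d had 1.25 reads for each of Mir467e in replicate 1 (95% counting interval 1.17 to 1.32) and 3.28 in replicate 2 (3.05 to 3.53), and the genes lie in the cluster with only Mir466p between them among the members, with hairpins 91.95% identical. Mir467e and Mir669o kept the ratio of 3.46 (3.15 to 3.82) in replicate 1 and 3.47 (3.03 to 3.99) in replicate 2. Mir669l and Mir669e likewise stood at 4.75 (3.50 to 6.55) and 4.71 (2.92 to 7.95). Mir669o had 1.60 reads for each of Mir669c in replicate 1 (1.40 to 1.84) and 0.921 in replicate 2 (0.778 to 1.09). Intervals did not overlap between libraries for 9 of the 28 pairs among the 8 members with at least 10 reads: 6 of 7 pairs with Mir467d, and Mir669c against Mir467e, Mir669o and Mir669l. The pairs were compared without a test, and intervals that overlap do not show equal ratios. Because the 28 pairs are made from 8 genes, the 9 are not separate results. Pairs of other microRNA genes were not compared, so the count is not shown to be particular to these families. The test that follows, another measure with a size threshold, called 36.1% of all 410 tested genes lower in replicate 2 and 17.6% higher. With any log2 ratio, 187 of the 410 were lower and 128 higher.

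Between libraries, 8 members had at least 10 reads in total and were tested. For each, an exact binomial test, two-sided, set its reads against the library sizes, which were scaled by the trimmed mean of M values method (TMM). A gene was called with an adjusted p under 0.05, after Benjamini-Hochberg adjustment over all 410 genes tested, and an absolute log2 ratio, replicate 2 over replicate 1, of at least 1. Of the 8 members 4 were lower in replicate 2 and 0 were higher. Of all tested genes 36.1% were called lower and 17.6% higher. The test compares the reads of 2 libraries and takes no account of variation between animals.

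The 4 called lower were Mir669l, Mir669e, Mir669o and Mir467e. Mir669l had a log2 ratio of −1.37 (counting interval −1.73 to −1.04, adjusted p = 1.11e-16, exact binomial test) and Mir669e of −1.33 (−2.18 to −0.61, adjusted p = 0.00022, exact binomial test). Mir669o had −1.11 (−1.33 to −0.90) and Mir467e −1.11 (−1.23 to −0.997), with adjusted p of 2.30e-26 and 1.78e-87 in the exact binomial test. These 4 ratios lay close to the threshold, so the count depended on the scaling.

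The other 4 were not called. Mir467c stood at −0.79 (−1.05 to −0.54), Mir669c at −0.31 (−0.54 to −0.08), Mir669h at 0.13 (−1.80 to 2.22) and Mir467d at 0.29 (0.21 to 0.36). Of these, Mir467c, Mir669c and Mir467d passed the adjusted p but not the size, with adjusted p of 7.59e-10, 0.00956 and 9.35e-13 in the exact binomial test. The median of the 8 was −0.95, and that of all 410 genes tested was −0.33. Relative to that median of all genes, which moves with the members under another scaling, Mir467d lay 0.62 higher, Mir669c 0.02 higher and Mir467e 0.78 lower on the log2 scale.

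With DESeq2 size factors, which moved the median of all genes by 0.28, Mir467e (−0.83) and Mir669o (−0.83) lost their calls and 2 members remained lower, Mir669e and Mir669l. Of all genes 31% were then called lower and 24.6% higher. With total reads, which moved the median by 0.63, 0 of 8 members were called, while 28% of all genes were lower and 32.9% higher. Mir669c then changed sign, to 0.31. With the dispersion of the pair itself, the edgeR exact test called 0 of 8 members and 0 of 410 genes, with 0 members and 28 genes at an unadjusted p under 0.05.

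**Figure D4:**
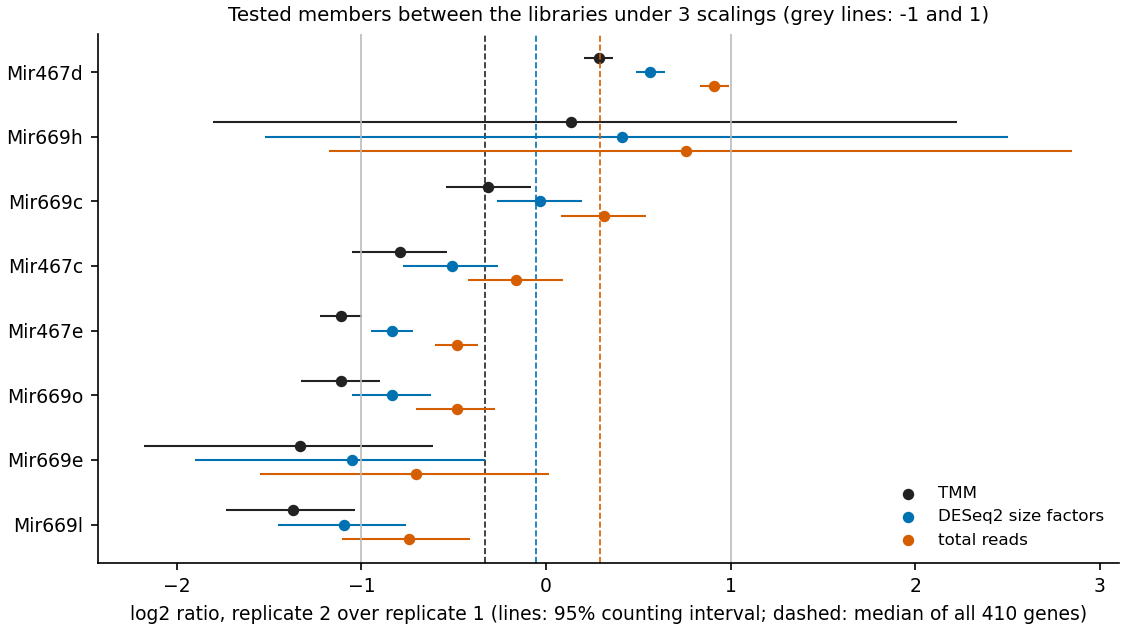
log2 ratio of replicate 2 over replicate 1 for the 8 tested members (points, with 95% counting intervals) under TMM, DESeq2 size factors and total reads; dashed lines are the medians of all 410 genes under each. Mir467d lies to the right of the dashed line of its scaling, and Mir467e, Mir669o, Mir669e and Mir669l lie to the left. A change of scaling moves all genes and their median alike, so these sides are the same in all 3 cases by construction.

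The other imprinted microRNA genes outside the Dlk1-Dio3 domain, a list chosen with earlier results of these data known, were all lower in replicate 2. Of 5 genes 5 were called lower, where 36.1% of all tested genes were, with a median log2 ratio of −3.36. The Gnas-locus genes Mir296 and Mir298 had 4074 and 10563 reads in replicate 1 and 1034 and 1903 in replicate 2, with log2 ratios of −2.07 and −2.56. Mir335 in Mest, Mir483 in Igf2 and Mir675 in H19 had −3.36, −4.78 and −5.01. The lowest ratio among the 8 tested members, −1.37 for Mir669l, was nearer to 0 than that of each of the 5.

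Levels of markers of other cell types are given in CPM, which rests on total reads, while the calls rest on TMM. The 7 genes listed for skeletal muscle summed to 146501 CPM in replicate 1 and 95.02 CPM in replicate 2. Mir206 held 652657 of their 653225 reads in replicate 1, so the sum there is nearly that of Mir206 alone. Only reads assigned to a single gene were counted, so low counts of the others do not show that their microRNAs were absent. Of the other muscle genes, Mir133b had 427 and 10 reads and Mir133a-1 had 34 and 16, both called lower, while Mir1a-2 had 87 and 156 and was not called. Mir208a, the only gene listed for heart, stood at 13.2 and 9670 CPM. The 2 erythroid genes came to 220 and 979 CPM, the 4 white blood cell genes to 538 and 2934, the endothelial Mir126a to 25417 and 66160, the 2 smooth muscle genes to 21681 and 49013 and the 3 mesenchymal genes to 5906 and 2807. Among the white blood cell genes Mir155 and Mir150 were called higher, Mir223 was called lower, with 726 and 345 reads, and Mir142 was not called. Mir126a, Mir143 and Mir145a, with TMM log2 ratios of 0.75, 0.54 and 0.88, were not called. The erythroid Mir451a and Mir144 and the heart marker Mir208a were called higher. The mesenchymal Mir199a-2, Mir199b and Mir214 were called lower. The part of these markers in the members' ratios was not tested. Of the markers of placenta and embryonic stem cells, 4 were in the tables, 2 of them at 0 in both libraries, and their sum was 1 read in replicate 1 and 2 reads in replicate 2.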

How the data were processed

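The deposited description files name mm10 as the assembly and GENCODE M21 as the annotation. The authors deposited unnormalized counts of reads for each microRNA gene, in unstranded, sense and antisense columns, and the sense column was used. Which aligner was used is not given in the sources used here. The 4 summary lines stayed out of library sizes and tests and held 47.7% of replicate 1 and 57.6% of replicate 2. All 2202 identifiers matched GENCODE M21, which also gave hairpin sequences, coordinates and host genes. A hairpin stretch of 22 nt was unique where no other annotated microRNA gene held it on either strand, and identity was 1 minus edit distance over the longer hairpin (edlib 1.3.9.post1).

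Log2 ratios have a prior count of 1 and library sizes scaled with TMM in edgeR 4.0.16 (R 4.3.3) from genes with at least 10 reads in total. Alternatives were DESeq2 1.42.0 size factors, total reads, other minimum counts, the unstranded column, any ratio, and the edgeR exact test. The members and lists were chosen with earlier results of these data known. Named genes were every member with at least 10 reads in both libraries together, and others were named to illustrate a count. On simulated Poisson counts for the comparison of the 2 libraries, with 414 genes, the test recovered 82 of 92 genes with a true log2 ratio of 1.5 in size and 102 of 105 with 3, and 216 of 217 unchanged genes were not called. The simulated counts had no spread beyond counting noise, and the test was given their library sizes. This checks the working of the test only and does not measure false calls between the real libraries. Python 3.11.15, numpy 2.4.6, scipy 1.17.1, pandas 2.3.3 and matplotlib 3.10.9 were used.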

Additional observations from a re-analysis of the deposited data

How the results depend on the processing

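The count of 4 members lower in replicate 2 fell to 2 with DESeq2 size factors, with the unstranded column and with TMM factors from all genes (chosen after seeing the data), and to 0 with total reads and with the edgeR exact test. The edgeR test took its dispersion from the same pair, so its 0 cannot decide whether a member differed. The count was 4 with no minimum count, 3 with at least 100 reads and 6 with any log2 ratio. The count of 0 higher became 1, Mir467d, with any log2 ratio and was 0 under the other alternatives run. With any log2 ratio 128 of all 410 genes tested were higher. The median log2 ratio of −0.95 moved to −0.67 under DESeq2 size factors and to −0.32 under total reads, and stayed below 0 under all alternatives run. The members' share of 0.130% in replicate 1 became 0.147% with the unstranded column and 0.193% with the Dlk1-Dio3 domain left out of the total, and the share of 0.159% in replicate 2 became 0.221% with the unstranded column. With each library left out in turn, the mean share ran from 0.130% to 0.159%. Of the ratios of single tested members under the alternatives, 45 kept their call or their lack of a call, 14 lost the call and 3 gained it. The 3 gains came with any log2 ratio, which drops the size threshold. Losses in the edgeR exact test came with unchanged ratios. Mir669c under total reads, where its sign changed, is among the 45. Leaving out the members that share a 22 nt stretch left no member to test. With stretches of 18 or 25 nt in place of 22, also chosen after seeing the data, 32 and 31 members had no stretch of their own, and 0 of these had reads. At 3 counts, depth allows a gene at 0 up to 0.673 CPM in replicate 1 and 0.976 CPM in replicate 2 of reads assigned to it alone, which sets no limit for the 32 members with no stretch of their own.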
